A study of Drosophila melanogaster with 14 samples.

Results

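The replication-dependent histone genes of Drosophila were examined in BG3 cells (ML-DmBG3-c2, a line grown in culture that derives from larval central nervous system), with RNA interference (RNAi) aimed at subunits of Polycomb Repressive Complex 1. Members were the genes of the authors' table named by histone type, a colon and a CG number. This gave 96 of the 7624 genes, namely 23 copies of His1, 20 of His2A, 13 of His2B, 18 of His3 and 22 of His4. The Ensembl release 115 annotation holds 111 such copies, and the 15 that were not analysed here are 10 of His2B and 5 of His3.

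These genes encode the core histones, which form the nucleosome, and the linker histone His1. They lie in a tandem array on the left arm of chromosome 2, in repeat units that normally hold a gene of each type, with His3 and His4 read away from each other and His2A and His2B likewise. They are transcribed when DNA is replicated, in a nuclear compartment called the histone locus body. Their messenger RNAs normally end in a stem-loop bound by the stem-loop binding protein (Slbp) and not in a poly(A) tail, and the cut that makes this end depends on the U7 small nuclear ribonucleoprotein. Histone variants such as His2Av and His3.3A are encoded elsewhere, are made throughout the cell cycle and carry poly(A) tails.

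The 4 groups were mock-treated cells (Mock, 6 libraries) and cells given double-stranded RNA against Polyhomeotic (Ph, 3 libraries), Sex combs extra (Sce, 3) or Polycomb (Pc, 2), all from 1 cell line, with total RNA depleted of ribosomal RNA before sequencing. For each gene the authors deposited a group's mean signal and its ratio to Mock, with the p-value and the q-value, which adjusts p for the number of genes tested. A gene is said to have fallen or risen where the q-value was under 0.05. Only group means were available, so no spread between replicates and no depth per library stand beside them, and the labels do not say that replicates came from separate cultures. Copies are near-identical and are not replicates of one another, and no source used here says how reads matching several copies were counted. In RNA from a whole culture, fewer cells in S phase and less histone RNA per cell cannot be told apart.

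The RNA of each targeted gene stood above Mock in its own group, at 8.64 times for ph-p (q = 0.017), 8.09 for ph-d (q = 0.028), 27.0 for Sce (q = 0.198) and 21.5 for Pc (q = 0.13) by the authors' deposited table, so depletion cannot be read from this signal, and reads from the added double-stranded RNA cannot be told apart from the gene's own. Each treated group is therefore named as the group labelled Ph, Sce or Pc. Of the markers of the nervous system in the table, the neuronal gene elav had an authors' mean of 17293 in Mock and the glial gene repo 2567, while 4 of 5 neuron markers and the neural precursor genes ase, wor and dpn were not analysed here. The blood cell genes srp and Pxn had authors' means of 106512 and 34307 in Mock. Summed over the 2 of 3 listed glial markers, the authors' means were 117876 in Mock, 227910 with Ph, 140498 with Sce and 136845 with Pc. For the 2 of 5 neural precursor markers the sums were 1005, 48406, 4432 and 36535 in the same order, with SoxN at 35.0 in Mock. For the 3 of 4 blood cell markers they were 140981, 77651, 148330 and 95727, for the 2 of 3 muscle markers 40460, 56842, 45657 and 43214, and for elav 17293, 21194, 16273 and 19887. Both listed neural precursor markers (pros and SoxN) and the glial gene repo rose with Ph and with Pc, and twi of the muscle list rose with Ph, by the authors' q-values. The other listed glial marker, moody, made up most of the glial sum in Mock and stood at authors' means of 115308 in Mock, 89252 with Ph, 134417 with Sce and 123030 with Pc. The third blood cell marker, Hml, stood at 162, 236, 95.2 and 2433 in the same order (q = 0.073 with Pc). No gene of the table had its largest group mean under 798.3, and SoxN, twi and Hml had Mock means below that value. SoxN exceeded it with Ph alone, twi with Ph and Pc alone, and Hml with Pc alone. A ratio above 1 in at least 1 of the groups named was thus fixed by their presence in the table. The part of these shifts in the histone values was not tested.

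Signal differed widely between copies of the same type in Mock, although copies of a type have nearly equal length. The His1 copies (exonic length 1023 bp) ran from an authors' mean of 9647 at His1:CG33804 through 31547 at His1:CG33843 to 78113 at His1:CG33810. The His2A copies (476 to 493 bp) ran from 28640 at His2A:CG31618 through 41250 at His2A:CG33832, one of the 2 middle copies, to 203188 at His2A:CG33814. The highest copy was 8.10 times the lowest for His1 and 7.09 times for His2A.

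The core histone type with the widest range was His2B (595 bp), from an authors' mean of 397 at His2B:CG33872 through 37557 at His2B:CG33908 to 253060 at His2B:CG33896, a factor of 638. For His3 (529 bp) the range was 2015 at His3:CG33866 to 382082 at His3:CG31613, with 2479 at His3:CG33851 near the middle. For His4 (412 to 528 bp) the authors' mean was 6995 at His4:CG33881, 28224 at His4:CG33871 and 101078 at His4:CG33909. Of the 96 copies, 2 had a Mock mean under 798.3, below which no gene of the table had its largest group mean: His2B:CG33872 and His2B:CG33874. Their means exceeded that value with Pc alone, at 995 and 937, so any ratio above 1 that they have with Pc was fixed by their presence in the table.

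Summed over the 96 copies, histone signal made up 1.19% of the column total in Mock, 0.604% in the group labelled Ph, 0.903% in Sce and 1.12% in Pc. The share of His2A went from 0.304% in Mock to 0.0836% with Ph, 0.231% with Sce and 0.319% with Pc. That of His4 went from 0.164% to 0.0589%, 0.0855% and 0.101% in the same order. The share of His1 was 0.173% in Mock, lower with Ph at 0.103%, and higher with Sce and Pc at 0.186% and 0.210%. These shares describe the table, since a read may have been counted at several copies.

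**Figure D1:**
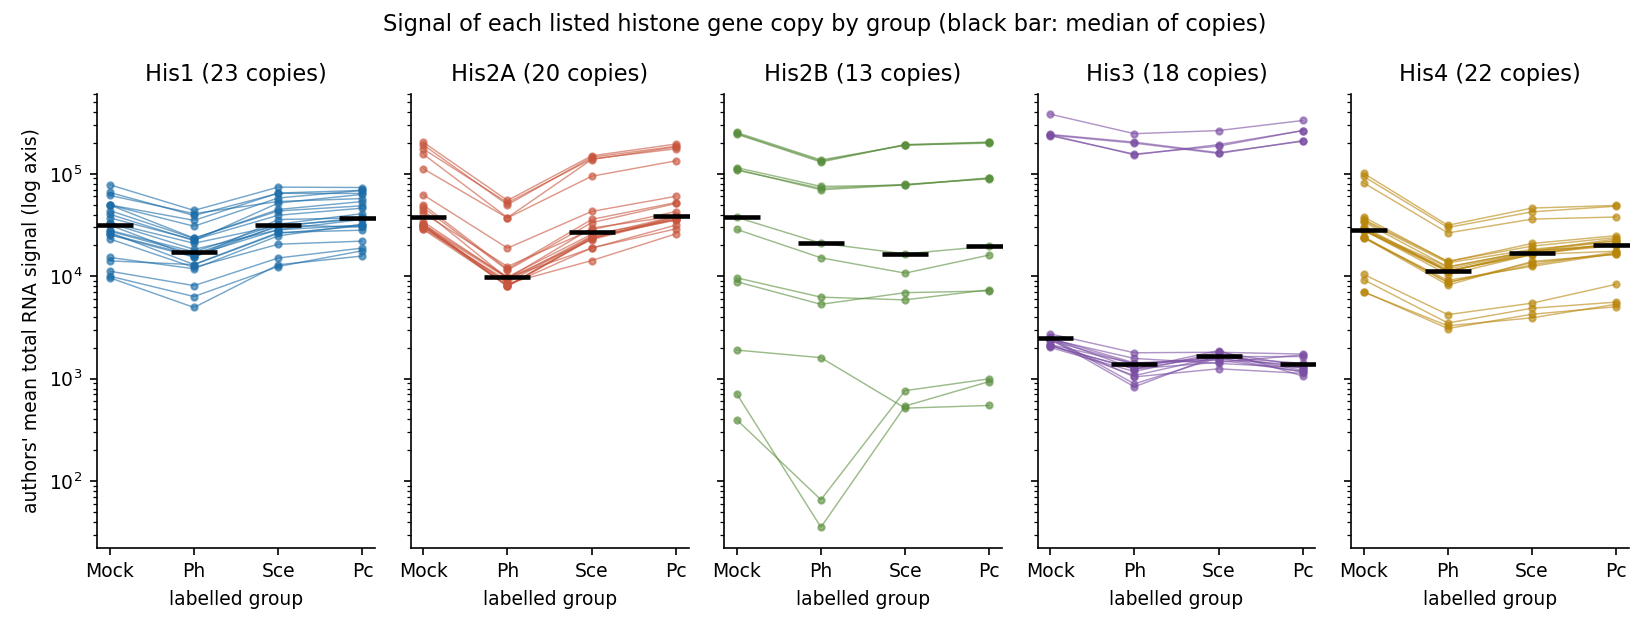
Authors' mean total RNA signal (log axis) of each listed copy in the 4 groups, 1 panel per histone type; a line joins the values of 1 copy and the black bar is the median over copies. All 20 His2A and all 22 His4 copies are lowest in the group labelled Ph, and the His3 copies split into 5 with a Mock mean of 235221 or more and 13 with one of 2737 or less.

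In the group labelled Ph every histone type stood below Mock, but by different amounts. The median ratio over copies in the authors' deposited table was 0.278 for His2A, 0.381 for His4, 0.559 for His2B, 0.596 for His3 and 0.607 for His1, and 1.05 over all genes. All 96 copies had a ratio under 1, as did 44.3% of all genes. A ratio under 0.5 was found in all 20 His2A copies and all 22 His4 copies, in 4 of His3, 3 of His1 and 2 of His2B, and in 6.58% of all genes.

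The ranges show how closely copies of a type lay together in the authors' deposited table. His2A ran from 0.216 (His2A:CG33820) to 0.331 (His2A:CG33829) and His4 from 0.311 (His4:CG33909) to 0.469 (His4:CG33881), so the ranges of these types overlapped between 0.311 and 0.331. His1 ran from 0.474 (His1:CG33807) to 0.919 (His1:CG33861) and His3 from 0.339 (His3:CG33812) to 0.841 (His3:CG33803). His2B ran from 0.050 at His2B:CG33874, whose authors' mean was 710 in Mock and 35.4 with Ph, to 0.843 at His2B:CG33886.

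Few of these differences passed the authors' test. In the group labelled Ph 3 copies fell, which is 3.12% of the copies, beside 0.367% of all genes that fell. None rose, where 3.52% of all genes rose and 3.88% changed in either direction. The copy His4:CG33877 had an authors' mean of 9248 in Mock, 3492 with Ph, 4867 with Sce and 5581 with Pc, and the authors' deposited table gives its Ph ratio as 0.378 (q = 0.017). It was lower than Mock in all 3 labelled groups and lowest with Ph.

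The copy His3:CG33863 had an authors' mean of 2536 in Mock, 889 with Ph, 1602 with Sce and 1156 with Pc, with a Ph ratio of 0.35 (q = 0.021) by the authors' deposited table. For His3:CG33812 the means were 2451, 831, 1697 and 1202 in the same order, and its Ph ratio was 0.339 (q = 0.029) in the authors' deposited table. By Mock mean, counted from the lowest, these copies ranked 3 of 22 (His4:CG33877), 12 of 18 (His3:CG33863) and 9 of 18 (His3:CG33812) in their types. The next q-value was 0.064, at His4:CG33881, and q lay from 0.05 to under 0.1 for 8 copies of the authors' deposited table. At q under 0.1, 11 copies were lower (11.5%, against 1.25% of all genes).

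By the unadjusted p-values of the authors' deposited table, 43 of the 96 copies were lower at p under 0.05 with Ph (44.8%, against 4.7% of all genes) and 0 were higher, where 13.9% of all genes were. By type these were all 22 copies of His4, 13 of 20 of His2A, 6 of 18 of His3, 1 of 23 of His1 and 1 of 13 of His2B. The size of the ratio and the q-value went together only in part across types. His2A had the lowest median ratio, yet its q-values ran from 0.102 to 0.197, while those of His4 ran from 0.017 to 0.127 in the authors' deposited table. The median q-values of His4 (0.105) and His2A (0.1485) were below those of His3 (0.1945), His2B (0.254) and His1 (0.256).

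**Figure D2:**
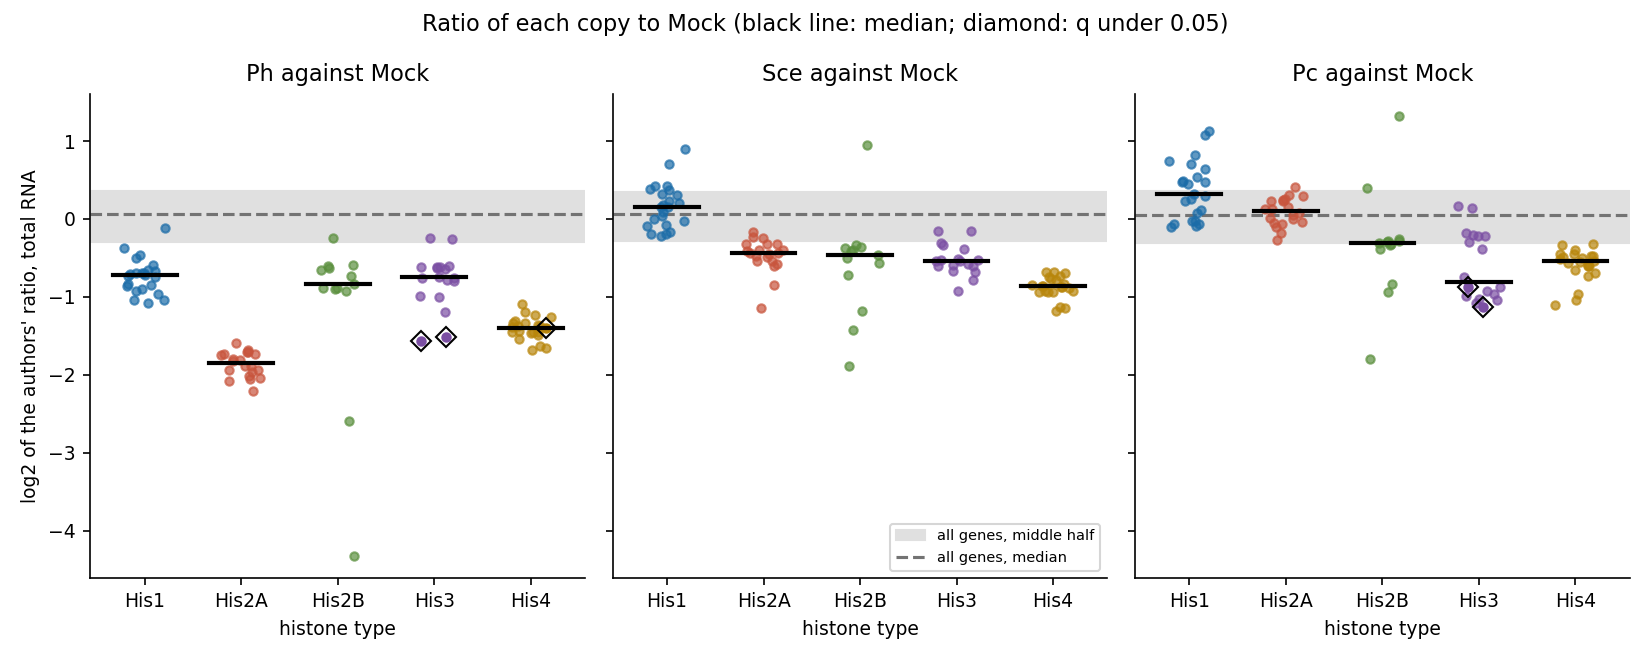
Log2 of the authors' ratio to Mock in total RNA for each copy, by histone type and labelled group; black lines are medians over copies, the grey band and dashed line the interquartile range and median of all 7624 genes, and diamonds mark q under 0.05. With Ph all 96 copies lie below 0, whereas with Pc the His1 and His2A medians lie above 0.

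In the group labelled Sce the order of the types differed. The median ratio in the authors' deposited table was 0.550 for His4, 0.690 for His3, 0.725 for His2B and 0.737 for His2A, but 1.11 for His1, beside 1.04 for all genes. The ratio was under 1 in all 22 His4, all 20 His2A and all 18 His3 copies, in 12 of 13 His2B copies and in 7 of 23 His1 copies, and in 45.1% of all genes.

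The lowest ratio with Sce was 0.271 at His2B:CG33886, with authors' means of 1899 in Mock and 515 with Sce, and the highest was 1.92 at His2B:CG33872, with means of 397 and 763, in the authors' deposited table. No copy passed, that is 0 of 96 beside 0.0131% of all genes that fell, 0.236% that rose and 0.249% in either direction. Without adjustment, 8 copies were lower at p under 0.05 by the authors' deposited table (8.33%, against 2.3% of all genes) and 0 higher (9.27% of all genes were). Of these 8, 7 were His4 copies and 1 was His2B:CG33886, which had the smallest q-value (0.187).

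In the group labelled Pc the types went apart. Median ratios in the authors' deposited table were 0.573 for His3, 0.685 for His4 and 0.804 for His2B, while His2A was at 1.07 and His1 at 1.24, beside 1.03 for all genes. The ratio was under 1 in all 22 His4 copies, 16 of 18 His3 and 11 of 13 His2B copies, but in 6 of 20 His2A and 6 of 23 His1 copies, and in 46.3% of all genes. For His3 the value depends on how copies are combined, since the ratio of the summed means was 0.947. The median over all 96 copies was 0.864, and 1.01 where only copies at or above the median level of all genes were kept.

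With Pc 2 copies fell, 2.08% of the copies beside 0.144% of all genes that fell, and none rose, where 3.04% of all genes rose (3.19% in either direction). These were His3:CG33854, with authors' means of 2154 in Mock and 1176 with Pc and a ratio of 0.546 (q = 0.029), and His3:CG33863 at 0.456 (q = 0.039) in the authors' deposited table. His3:CG33854 stood at 1401 with Ph and 1514 with Sce, so it was lowest with Pc. Adjusting the rounded p-values by the Benjamini-Hochberg method left 1 copy. The next q-value was 0.112, at His3:CG33842 in the authors' deposited table.

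Before adjustment, 8 copies were lower with Pc at p under 0.05 by the authors' deposited table (8.33%, where 2.62% of all genes were) and 4 were higher (11.8% of all genes were). The lower ones were 6 copies of His3, 1 of His4 and 1 of His2B, and the higher ones 3 copies of His1 and His2B:CG33872, which is in the table through its Pc mean. The highest ratios in the authors' deposited table were 2.51 at His2B:CG33872, with authors' means of 397 in Mock and 995 with Pc, and 2.19 at His1:CG33861, with means of 14110 and 30940. His1:CG33861 also had the highest His1 ratio with Ph (0.919) and with Sce (1.86) in the authors' deposited table.

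Set side by side, the 3 comparisons share the same Mock means, so only the values of each group are described. The authors' mean was lowest with Ph among the 3 labelled groups in 85 of 96 copies, and in 36.9% of all genes. This held for all copies of His1, His2A and His4, for 9 of 13 of His2B and for 11 of 18 of His3. The median quotient of the Ph mean over the Sce mean was 0.367 for His2A, 0.538 for His1, 0.695 for His4, 0.845 for His3 and 0.895 for His2B, and 0.996 for all genes. These differences between labelled groups were not tested.

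Among the types, His4 was the one in which every copy followed a single order. All 22 copies had their lowest authors' mean with Ph, then Sce, then Pc, then Mock. The share of all genes with this full order is not given here, so whether it is particular to His4 cannot be said. The highest copy, His4:CG33909, stood at 101078 in Mock, 31419 with Ph, 46270 with Sce and 49075 with Pc. The middle copy, His4:CG33871, stood at 28224, 11172, 16873 and 20329, and the lowest, His4:CG33881, at 6995, 3277, 3921 and 5325. The 3 copies differed in level and had deposited ratios (authors' deposited table) between 0.311 and 0.469 with Ph and between 0.486 and 0.761 with Pc. In both groups the highest copy had the lowest ratio of the 3 and the lowest copy the highest. Over the 22 copies the Spearman correlation of Mock mean and ratio was -0.52 with Ph, -0.45 with Sce and -0.62 with Pc. The Mock mean is also the denominator of these ratios, so level and ratio are not independent.

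For His2A, whose protein pairs with His2B in the nucleosome, the signal with Pc was close to Mock and that with Ph far below it. His2A:CG33814 had authors' means of 203188 in Mock, 54878 with Ph, 149676 with Sce and 195113 with Pc. His2A:CG33832 stood at 41250, 12430, 28474 and 42807 in the same order. His2B did not follow this: His2B:CG33896 stood at 253060, 136477, 189729 and 202923. The middle copy His2B:CG33908 stood at 37557, 20990, 16520 and 19642, lowest with Sce.

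The linker histone His1 was below Mock with Ph alone in most copies. His1:CG33843 stood at 31547 in Mock, 15353 with Ph, 35752 with Sce and 37108 with Pc. His1:CG33810, the highest copy, stood at 78113, 43870, 74055 and 73408. His1:CG33804, the lowest, stood at 9647, 4951, 12925 and 15740. Over the 23 copies, the 5 lowest in Mock had Pc ratios of 1.63 to 2.19, and the other 18 had ratios of 0.932 to 1.57, by the authors' deposited table. This split, at the widest gap in Mock level, was made after the values were seen. The Mock mean is also the denominator of these ratios, so level and ratio are not independent.

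The His3 copies fell into separate level classes, a split made here at the widest gap in Mock signal after the values were seen. In Mock 5 copies had authors' means from 235221 to 382082 and 13 had means from 2015 to 2737, a gap of 86.0-fold. By the authors' deposited table the Pc ratio was 0.859 to 1.12 in the high class (median 0.882) and 0.456 to 0.861 in the low class (median 0.527). With Ph the medians were 0.661 and 0.581, and with Sce 0.692 and 0.689. The Mock mean that sets the class is also the denominator of these ratios. The copies of His3 that passed with Ph or Pc were all in the low class. The highest copy, His3:CG31613, stood at 382082 in Mock, 246233 with Ph, 264222 with Sce and 331340 with Pc.

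Some copies had nearly the same signal, and whether they are separate measurements is not known. The 3 highest His2B copies had Mock means between 243757 and 253060 and Ph ratios of 0.534 to 0.539 by the authors' deposited table. The next 3 had Mock means between 108603 and 114766 and Ph ratios of 0.633 to 0.663 by the authors' deposited table. Among the 4 His3 copies with Mock means between 235221 and 242083, His3:CG33803 and His3:CG33839 had Ph ratios of 0.841 and 0.834, and His3:CG33815 and His3:CG33845 had 0.639 and 0.661 in the authors' deposited table.

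In the annotation the array holds 23 units opened by a His1 copy, of which 19 have all 5 types annotated and 7 have all 5 in the authors' table. The 5 annotated His3 copies not analysed here lie in consecutive units. The Spearman correlation of the Mock mean between types of the same unit ran, over the pairs of types, from -0.49 for His2A and His2B (10 units) to 0.56 for His2B and His3 (11 units). For His3 and His4, which share a promoter region, it was 0.054 over 17 units. These are descriptions across units of the same libraries, and the reads of a unit may have been assigned to others. The high-signal His3 copies were in units 1, 2, 6, 14 and 16.

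**Figure D3:**
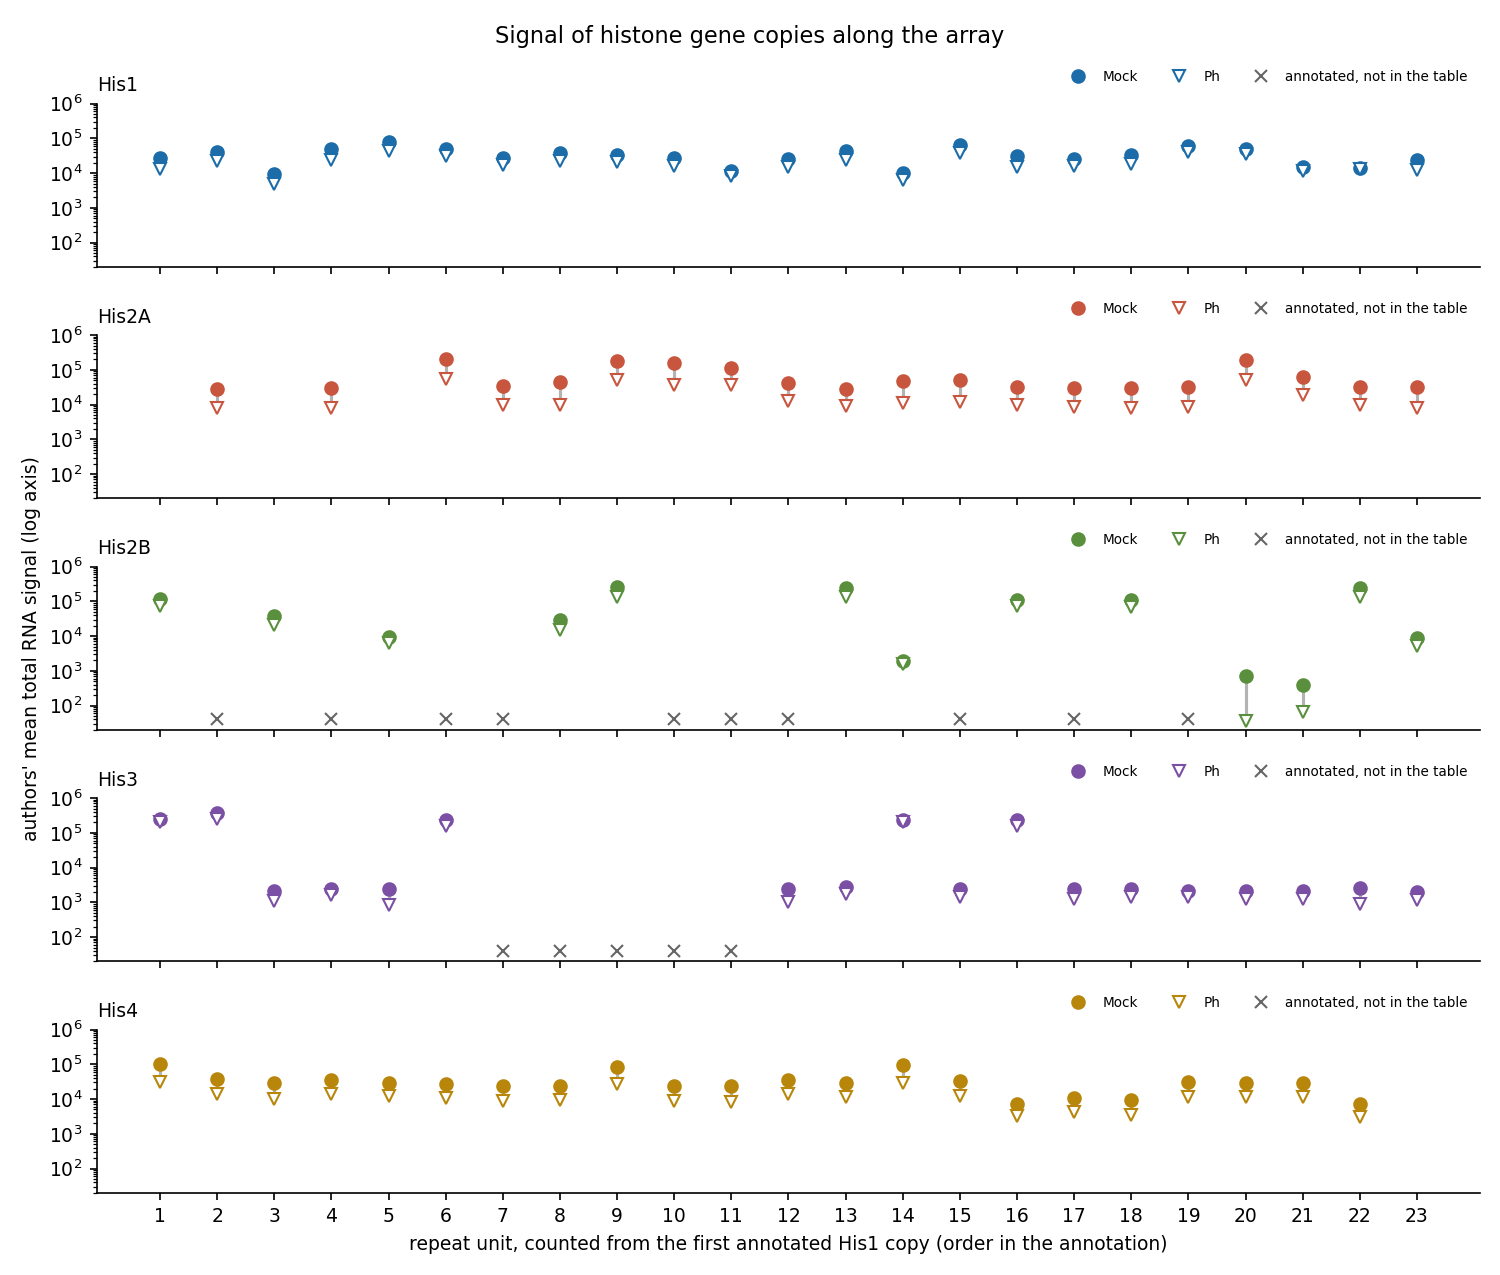
Authors' mean total RNA signal (log axis) of the copies in the order of the annotation, by repeat unit; filled circles are Mock, open triangles the group labelled Ph, and crosses annotated copies that are not in the table. The 5 His3 copies at 235221 or more in Mock stand among copies of 2015 to 2737, and every triangle lies below its circle.

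Histone transcripts are short, and in total RNA the ratio moved with exonic length across all genes. Lengths came from the Ensembl annotation and were found for 98.6% of genes and all 96 copies. With Ph the median ratio in the authors' deposited table over other genes was 0.563 for the 120 genes of at most 500 bp, 0.782 for 501 to 1000 bp, 0.988 for 1001 to 2000 bp, 1.14 for 2001 to 4000 bp and 1.16 above 4000 bp. The His2A median of 0.278 and the His4 median of 0.381 lay below that of the shortest genes, of which 11.7% and 24.2% had a ratio as low. The His1 median of 0.607 lay below that of genes of 1001 to 2000 bp, of which 10.2% had a ratio as low. At 1023 bp the His1 copies are near the lower edge of this class, so the share depends on where the edge was set. Genes of 501 to 1000 bp had a lower quartile of 0.581, which is under the His1 median.

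For His2B and His3, with Ph, 22.6% and 26.6% of other genes of 501 to 1000 bp had a ratio at or below the median of the type in the authors' deposited table. With Sce the medians of the length classes ran from 0.808 to 1.19 and with Pc from 0.835 to 1.19. With Pc the His2A median of 1.07 lay above the 0.835 of genes of at most 500 bp, and the His1 median of 1.24 above the 0.940 of its length class. Ribosomal protein genes, another set of short and abundant transcripts (median 910 bp), had median ratios in the authors' deposited table of 0.581 with Ph, 0.752 with Sce and 0.716 with Pc, and 0 of 85 passed in any of the 3. Of them 25, 3 and 8 were lower and 0, 0 and 1 higher at unadjusted p under 0.05 by the authors' deposited table. Over all genes 4.7%, 2.3% and 2.62% were lower and 13.9%, 9.27% and 11.8% higher. The part of length in the histone ratios was not tested beyond this comparison.

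**Figure D4:**
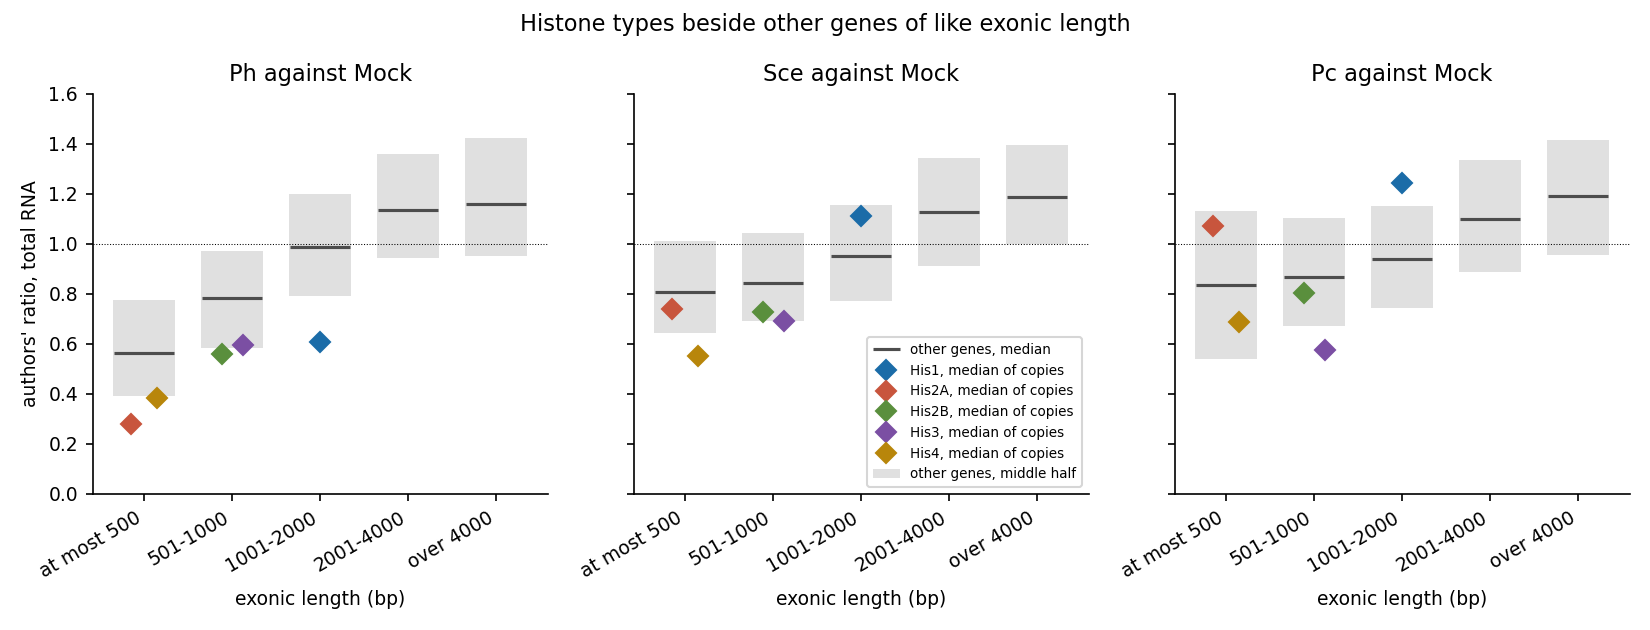
Authors' ratio to Mock in total RNA (linear axis) by exonic length; grey boxes span the interquartile range of genes other than histone copies in each length class, dark lines are their medians, and diamonds are the medians over copies of each histone type, offset sideways for legibility. With Ph the diamonds of His1, His2A, His2B and His4 lie below the box of their class and that of His3 within it, and with Pc the His1 diamond lies above its box and the His3 diamond below. The His1 copies (1023 bp) are near the lower edge of their class, and with Ph their diamond would lie within the box of 501 to 1000 bp.

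The table holds a further set of columns marked nt.gene, for Mock, Ph and Sce. Neither header nor labels say what was measured and no labelled sample matches them, so they are kept apart here. In these columns the histone types did not stand together below Mock with Ph. The median ratio in the authors' deposited table was 1.51 for His1, 1.22 for His2B, 0.916 for His4, 0.871 for His2A and 0.692 for His3, and 1.02 for all genes. With Sce it was 1.25 for His1, 0.931 for His2B, 0.779 for His4, 0.751 for His3 and 0.719 for His2A, and 1.01 for all genes.

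No copy passed in the nt.gene columns. With Ph it was 0 of 96, where 0.787% of all genes fell, 1.69% rose and 2.48% did either by the authors' deposited table. With Sce it was 0 of 96, where 0.0525% fell, 0.0656% rose and 0.118% did either. Before adjustment, 1 copy was higher with Ph at p under 0.05 (9.82% of all genes were) and 0 lower (6.66% were). This was His1:CG33834, with a ratio of 2.16 (q = 0.162) by the authors' deposited table. With Sce 6 copies were lower (6.25%, against 5.29% of all genes) and 0 higher (4.62% were), 5 of them His2A and 1 His3:CG33866. The smallest q-value with Sce was 0.143, at His2A:CG33841 where the authors' deposited table gives a ratio of 0.601.

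Copy by copy, the total RNA ratio with Ph was below the nt.gene ratio in all 23 His1, 20 His2A, 13 His2B and 22 His4 copies and in 12 of 18 His3 copies, as in 47.0% of all genes. Other short genes also had lower medians in total RNA than in nt.gene with Ph. These were 0.5625 and 0.9015 for genes of at most 500 bp, and 0.782 and 1.047 for 501 to 1000 bp. For 1001 to 2000 bp they were 0.988 and 1.019, and for ribosomal protein genes 0.581 and 1.086. Genes of 2001 to 4000 bp went the other way (1.136 and 1.018), as did longer ones. In 22 of 23 His1 copies the total RNA ratio was under 1 and the nt.gene ratio over 1, as in 1404 of all 7624 genes. His1:CG33810, the highest His1 copy in both column sets, had nt.gene means of 3747 in Mock and 5871 with Ph, against 78113 and 43870 in total RNA. Most His1 ratios rest on lower nt.gene signal, with a median over copies of 677 in Mock and a lowest mean of 106. The medians of the other types there were 795 (His3), 2694 (His2B), 3386 (His2A) and 6251 (His4). His2A:CG33814 had nt.gene means of 17947 and 17226, against 203188 and 54878 in total RNA. With Sce the total RNA ratio was below the nt.gene ratio in all 22 His4, 11 of 13 His2B, 12 of 18 His3, 13 of 23 His1 and 8 of 20 His2A copies, and in 47.4% of all genes. The medians with Sce were 0.808 and 0.952 for other genes of at most 500 bp, and 0.752 and 1.099 for ribosomal protein genes. Those of 2001 to 4000 bp again went the other way (1.127 and 1.011). The difference between the column sets was not tested.

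**Figure D5:**
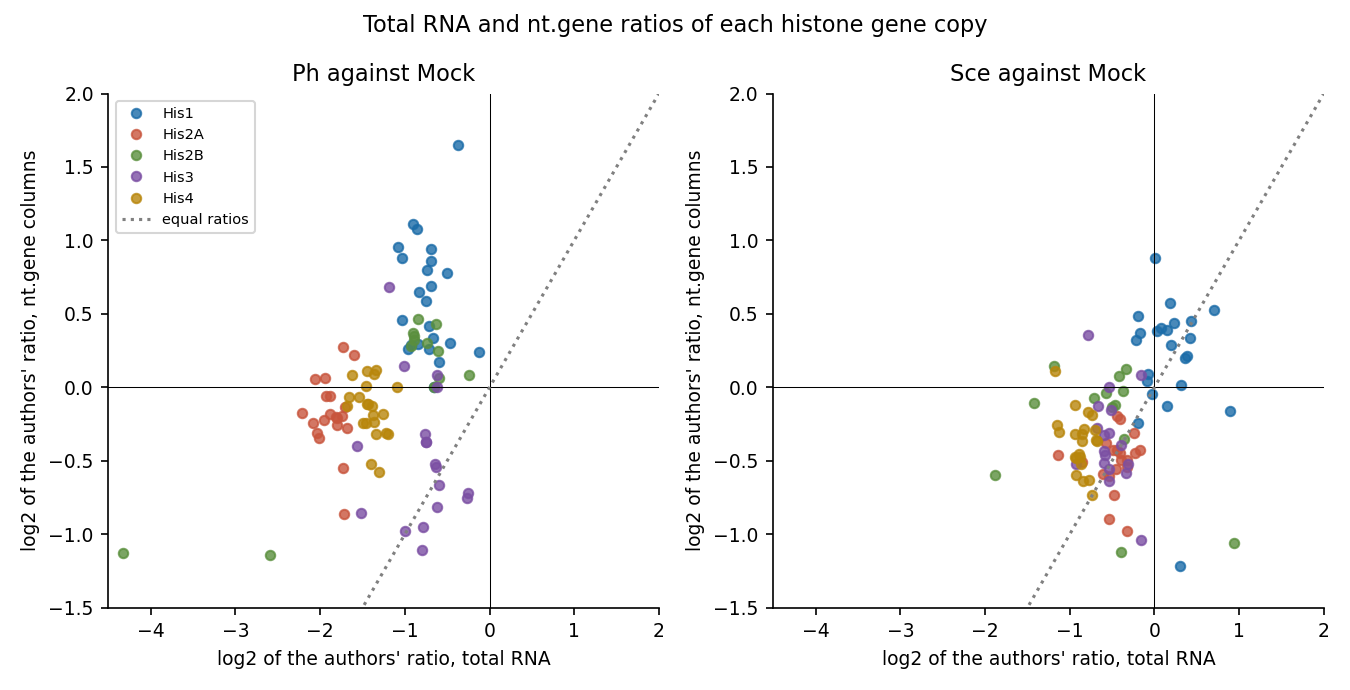
Log2 of the authors' ratio in total RNA (horizontal) and in the nt.gene columns (vertical) for each copy, with Ph on the left and Sce on the right; the dotted line marks equal ratios. With Ph the His1 copies lie to the left of 0 and at or above 0 on the vertical axis, and all His2A and His4 copies lie above the dotted line.

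The nt.gene mean in Mock, divided by the total RNA mean of the same gene, also differed by type. Its median was 0.0203 for His1, 0.0910 for His2A, 0.123 for His2B, 0.213 for His4 and 0.296 for His3, beside 0.246 for all genes. Within His3 it was 0.330 in the 13 low-signal copies and 0.0890 in the 5 high-signal ones.

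Of the genes outside the array that encode histone variants, 5 of 6 were in the table and 0 passed in any comparison. By unadjusted p under 0.05 of the authors' deposited table, 1 was lower with Ph in total RNA, and 1 with Ph and 1 with Sce in the nt.gene columns. Over all genes 4.7%, 6.66% and 5.29% were lower there. His4r, a gene for histone H4 outside the array, stood at an authors' mean of 120578 in Mock, 34252 with Ph, 67580 with Sce and 82915 with Pc, with a Ph ratio of 0.284 (q = 0.191) in the authors' deposited table. Its 4 values have the order of the array's His4 copies, as do those of His3.3A and His2Av. The same order was found in 4 of 23 His1, 6 of 20 His2A, 7 of 13 His2B and 3 of 18 His3 copies, and its share over all genes is not given here.

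His3.3A and His3.3B, which encode the replacement histone H3.3, differed from each other. His3.3A stood at 85259 in Mock, 45946 with Ph, 55283 with Sce and 59420 with Pc. His3.3B stood at 411978, 432887, 229010 and 253122, above Mock with Ph and below it with Sce and Pc. Their Ph q-values in the authors' deposited table were 0.090 and 0.535. His2Av, the H2A variant of this species, stood at 251677, 193947, 244027 and 246392, and cid, the centromeric H3, at 5030, 3271, 3650 and 5041.

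Of 14 genes of the histone locus body and of histone RNA 3' processing, 13 were in the table and 0 passed, the smallest q-values in total RNA being 0.196 with Ph, 0.267 with Sce and 0.086 with Pc in the authors' deposited table. There 0, 0 and 1 were higher and 0 lower in total RNA at unadjusted p under 0.05, and 2 were lower with Ph in the nt.gene columns. Over all genes 13.9%, 9.27% and 11.8% were higher and 4.7%, 2.3% and 2.62% lower, and 6.66% were lower with Ph in nt.gene. The 13 genes had a median ratio in the authors' deposited table of 1.04 with Ph, 1.14 with Sce and 1.13 with Pc. This was near the 1.05, 1.04 and 1.03 of all genes. The exonic lengths of these genes ran from 543 bp (Lsm10) to 6254 bp (Trl), and they were not set beside genes of like length. Slbp, whose protein binds the stem-loop, stood at an authors' mean of 16618 in Mock, 14914 with Ph, 19391 with Sce and 21159 with Pc.

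The scaffold gene mxc stood at 26295 in Mock, 32601, 43169 and 37395 with Ph, Sce and Pc, and mute, another component of the histone locus body, at 47445, 50011, 55232 and 43864. The U7 particle genes Lsm10 and Lsm11 stood at 2028 and 2382 in Mock and at 1444 and 1666 with Ph. FLASH, which works with that particle, had 0.994 as its Ph ratio in the authors' deposited table. The cleavage factor genes Cpsf73, Cpsf100, Sym and CstF-64 had Ph ratios of 1.19, 1.11, 0.913 and 1.19 there. The elongation factor gene Spt6 had 1.01 with Ph, Trl, which encodes the GAGA factor, had 1.09, and Clamp (listed as CG1832), whose protein binds GA-rich DNA between His3 and His4, had 1.04 in the authors' deposited table.

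With Ph in total RNA, the median ratios of histone chaperone genes and of DNA replication and cell cycle genes were close to that of all genes (1.05). Many genes of these lists are longer than 2000 bp. Among genes other than histone copies, those of 2001 to 4000 bp had a median ratio of 1.14 with Ph and those of 1001 to 2000 bp 0.988. The part of length in the values of these lists was not tested. Of 12 chaperone genes listed 0 passed, with a median ratio of 1.06 in the authors' deposited table. At unadjusted p under 0.05 2 of them were higher, where 13.9% of all genes were. The smallest q-values there were 0.068 for Nap1 (ratio 1.41), 0.109 for Ssrp (1.47) and 0.206 for Hira (1.24). With Sce they were XNP (1.58, q = 0.237), Ssrp (1.498, q = 0.246) and Caf1-105 (1.52, q = 0.284), and with Pc Nlp (0.695, q = 0.08), XNP (1.77, q = 0.16) and Ssrp (1.31, q = 0.302) in the authors' deposited table. Unadjusted, 2 were higher with Sce at p under 0.05, and 1 was higher and 1 lower with Pc. Over all genes 9.27% were higher with Sce, and 11.8% were higher and 2.62% lower with Pc. The chaperone genes encode proteins that bring histones to DNA or take them off it.

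Of 27 listed DNA replication and cell cycle genes 0 passed in total RNA. The list also holds CycB and stg, which act at mitosis. Its median ratios in the authors' deposited table were 1.06 with Ph, 1.11 with Sce and 0.913 with Pc. Over all genes 13.9%, 9.27% and 11.8% were higher and 4.7%, 2.3% and 2.62% lower at unadjusted p under 0.05 with Ph, Sce and Pc. Of the 27 genes 0, 2 and 0 were higher and 0 lower by the authors' deposited table. The smallest q-values were those of geminin (0.548, q = 0.185), DNApol-alpha73 (1.25, q = 0.216) and CDC45L (1.33, q = 0.281) with Ph in the authors' deposited table. With Sce they were CycB (1.46, q = 0.241), CycE (1.89, q = 0.246) and dup (1.48, q = 0.321), and with Pc stg (0.313, q = 0.311), CycB (1.36, q = 0.327) and RnrS (0.737, q = 0.402) in the authors' deposited table.

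For the replication and cell cycle genes in the nt.gene columns with Ph, 26 of 27 had a ratio under 1 (47.5% of all genes did). Their median was 0.638 in the authors' deposited table. There 0 passed and 13 were lower at unadjusted p under 0.05, as were 6.66% of all genes. The smallest q-values were those of CycB (0.726, q = 0.055), Mcm5 (0.553, q = 0.093) and Mcm6 (0.553, q = 0.102) in the authors' deposited table. With Sce the median was 0.760, beside 1.01 for all genes, 0 passed and 6 were lower at unadjusted p under 0.05, as were 5.29% of all genes, with CycA (0.704, q = 0.35), RnrL (0.637, q = 0.352) and CycE (0.703, q = 0.352) at the smallest q-values in the authors' deposited table. The chaperone genes had nt.gene medians of 0.925 with Ph and 0.920 with Sce, and 0 passed there. Where 6.66% and 5.29% of all genes were lower at unadjusted p under 0.05, 2 and 3 of the chaperone genes were. Their smallest q-values were those of Hira (0.672, q = 0.053), Caf1-105 (0.433, q = 0.14) and asf1 (0.676, q = 0.202) with Ph, and Caf1-105 (0.633, q = 0.137), Caf1 (0.643, q = 0.289) and Hira (0.748, q = 0.3) with Sce in the authors' deposited table.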

How the data were processed

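Total RNA of BG3 cells was depleted of ribosomal RNA and made into libraries with Ion Total RNA-seq reagents, per the labels' protocols. Per the file headers, the authors deposited mean signal by group, a ratio of treated to Mock means, a p-value and a q-value, both written to 3 decimals. What the deposited nt.gene means measure, and their unit, is not stated. The submitters' processing notes name bedtools. No source used here gives the aligner, build, way of counting, strand, normalization or test. The largest total RNA column sum exceeds the smallest by 0.0209%, so the deposited signal had been scaled, and whether it was divided by length is not given. The deposited ratio matched the quotient of the means within 0.252% for the histone copies.

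The table has 0 columns of values per library, so no model was fitted here and depth is unknown. The ratio reported is the deposited one, with a pseudocount of 0; a pseudocount of 1 had been planned as the main choice and is given as an alternative. The alternatives are listed in the closing section. Calls are the authors' q-value under 0.05. Medians, counts and Benjamini-Hochberg values were computed with Python 3.11.15, pandas 2.3.3 and scipy 1.17.1, and the Benjamini-Hochberg routine was tested on simulated p-values. Exonic lengths and array order came from the Ensembl release 115 annotation (BDGP6), and older symbols were matched through the RefSeq table of Release 6. Named copies were those with the lowest, middle and highest Mock mean of each type, the lowest or highest ratio, or q under 0.05, with all listed variant and 3' processing genes and the 3 smallest q-values per list of chaperone and replication genes. Members and lists were chosen with earlier results of these data known.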

Additional observations from a re-analysis of the deposited data

How the results depend on the processing

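The deposited ratio carried no pseudocount; pseudocounts of 1 and 100, scaling to the median ratio of all genes and scaling to the total without histone copies and targeted genes moved no median by more than the spread over copies, here 1 SD of log2 ratios, and turned no direction. Set against genes of at most 1000 bp, some type medians moved by more than this spread. With Ph they became 0.822 (His1), 0.376 (His2A), 0.807 (His3) and 0.516 (His4). With Sce they became 0.894 (His2A), 0.837 (His3) and 0.667 (His4), and with Pc 1.25 (His2A) and 0.803 (His4). His1, at 1023 bp, is longer than these genes, and genes of 1001 to 2000 bp had a Ph median of 0.988. Among the medians within the spread were His2B with Ph (0.757) and His1 with Sce (1.35) and Pc (1.46). With Pc the ratio over all copies turned from 0.864 to 1.01 against these short genes. Ratios of summed means moved His3 with Pc from 0.573 to 0.947. Copies at or above the median level of all genes gave 0.882 for His3 with Pc, 1.01 for all copies with Pc and 1.05 for all copies with Ph in the nt.gene columns, where the median was 0.981. The split at the widest gap in Mock level was chosen after seeing the data. The copies on its lower side gave 0.723 (His1, Ph), 1.77 (His1, Pc), 0.166 (His2B, Ph) and, turned from 0.804, 1.32 (His2B, Pc), a median of 3 copies of which 2 are in the table through their Pc mean, so that this turn was fixed by the table's lower limit, and those on its upper side 0.882 (His3, Pc). The other causes were not tested.

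The count of copies called with Ph was 3, and 11 at q under 0.1 (1.25% of all genes were lower there). At unadjusted p under 0.05 it was 43 with Ph, all lower (4.7% of all genes were), 8 with Sce, all lower (2.3%), and 12 with Pc, 8 lower (2.62%) and 4 higher (11.8%), in total RNA. In the nt.gene columns it was 1 higher with Ph (9.82%) and 6 lower with Sce (5.29%). Benjamini-Hochberg adjustment of the rounded p-values left 1 with Pc, where 2 were called. No replicate could be left out, since values per library were not used here. No paired analysis was possible because the deposited columns are group means and carry no replicate numbers.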

Other observations

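The table also holds 8 pseudogenes of the histone array, a list added after their values were seen. All 8 had a ratio under 1 in each labelled group in total RNA, with median ratios in the authors' deposited table of 0.301 with Ph, 0.593 with Sce and 0.594 with Pc, and 0 passed. Over all genes 4.7%, 2.3% and 2.62% were lower at unadjusted p under 0.05 with Ph, Sce and Pc. Of the 8 pseudogenes 3 were lower with Ph, 1 with Sce and 0 with Pc. The lowest Ph ratio was 0.083 at His-Psi:CR33811 (q = 0.153), which in the annotation lies between the His2B and His4 copies of its unit, where other units have His2A. Its authors' mean in Mock was 19060. In the nt.gene columns the medians were 0.756 with Ph and 0.807 with Sce, 0 passed, and 3 and 0 were lower at unadjusted p under 0.05 in the authors' deposited table.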
